A study of Mus musculus with 12 samples.

Results

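This comparison set hearts injured by ischemia and reperfusion in mice that had drunk vitamin B12 (I/R+B12) against hearts injured in the same way in mice on normal water (I/R). Both groups held 3 RNA-seq libraries, which are 6 of the 12 libraries of the series, and they were found by matching the column names of the deposited table to the sample titles. All 12 hearts came from wild-type mice. In the 2 injured groups the left anterior descending coronary artery was closed for 45 min and the heart was then reperfused for 24 h. The I/R+B12 mice had received vitamin B12 at 50 mg/L in their drinking water over the 7 days that preceded surgery, with 4 mL of water drunk per day. The other 6 libraries came from sham-operated hearts, opened in the same way but with no artery closed, from mice on normal water (Sham, 3 libraries) or on the same vitamin B12 water (Sham+B12, 3 libraries). The tissue is labelled heart, without a region. Sex, age, the time of day of harvest and whether a library holds 1 animal or several are not given in the sources used here, so every p-value below measures only the spread between these samples.

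Vitamin B12 is the cofactor of 2 mammalian enzymes, methionine synthase in the cytosol and methylmalonyl-CoA mutase in the mitochondrion. A heart that is reperfused after a coronary occlusion is invaded by neutrophils and then monocytes, complement and interferon-induced genes are switched on, and fibroblasts begin to lay down collagen. Stress hormones and the local circadian clock also act on the transcription of the injured muscle.

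Expression was measured as FPKM, the fragments of a gene divided by the length of its transcript and by the total of the library. Of 55487 genes in the table, 13001 reached 1 FPKM in at least 3 libraries and were tested with limma on log2(FPKM + 1). Differences are given on that scale as I/R+B12 minus I/R, which understates the change of genes near 1 FPKM. Depth was estimated from the step size of low FPKM values at 24.25 to 27.75 M fragments per library, which puts a 1500-nt transcript of 1 FPKM at 30.1 to 34.4 fragments, less those lost at its ends. All 18 listed cardiomyocyte markers were tested and Myh6, the main heavy chain of ventricular myosin in the mouse, ranged from 4484 to 9548 FPKM, while none of 5 lung and airway markers passed the filter on low values.

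The libraries within the injured groups were unlike one another. Across genes, I/R+B12 1 was nearest to I/R 1 (Pearson r = 0.979) and had a mean r of 0.969 with the I/R libraries against 0.941 with its own group. I/R 3 was nearest to Sham 2 (r = 0.982), and its list of 16 neutrophil markers averaged -1.48 log2 units from the mean of the 12 libraries, where I/R 1 and I/R 2 stood at 2.33 and 2.08 and the 6 sham libraries between -1.94 and -0.42. The same held for acute-phase genes, at -1.07 in I/R 3 against 1.12 and 1.21. The library labelled I/R 3 thus stood within the sham range on the neutrophil and acute-phase lists, and Sham 3, at 0.48 on the acute-phase list, lay above its group. In the I/R+B12 group the neutrophil list stood at 1.84, 3.55 and 0.05. These values are set beside the results that follow, and their part in them was not tested.

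No gene reached an adjusted p under 0.05 (limma, Benjamini-Hochberg) when all libraries were kept, and the smallest adjusted p was 0.0739, shared by 88 genes. An unadjusted p under 0.05 was reached by 3711 genes, 28.5% of those tested, of which 507 (3.9%) were higher and 3204 (24.6%) lower with vitamin B12. The 3 I/R+B12 libraries lay wholly below the 3 I/R libraries for 18.8% of tested genes and wholly above them for 4.41%. The median gene differed by -0.21, and scaling the libraries by the median ratio set that shift to 0.00 and brought the share of lower genes among those with an unadjusted p under 0.05 from 86.3% to 53.1%. With that scaling 2 genes passed, both higher (0.0154% of those tested). They were Tbx3, a transcription factor of the cardiac conduction system, at 3.18, 2.44 and 2.92 FPKM in I/R and 8.30, 5.58 and 4.86 in I/R+B12, and Snrpn, an imprinted small nuclear ribonucleoprotein gene whose transcript overlaps Snurf, at 32.4, 27.00 and 30.4 and 80.5, 49.1 and 51.5. Without I/R+B12 1 the same test called 4412 genes, 496 higher (3.82%) and 3916 lower (30.1%), and without Sham 3, which enters only the shared estimate of spread, it called 68. Counts of members that follow are read against these shares, and the lists below were chosen for this tissue and treatment.

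Interferon-stimulated genes were mostly lower in all 3 I/R+B12 libraries, the first included. Of 45 listed genes, 44 were tested, and 31 of them had every I/R+B12 library below every I/R library, against 18.8% of all tested genes; none lay wholly above. I/R+B12 1 alone was below all 3 I/R libraries for 39 of the 44, against 28.7% of all genes. The median difference was -0.61, -0.41 after median-ratio scaling and -0.04 between Sham+B12 and Sham. An unadjusted p under 0.05 was reached by 32 of the 44 in the lower direction and by 0 in the higher.

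Bst2 encodes tetherin, which holds budding virus at the cell surface. It was at 74.5, 81.5 and 90.9 FPKM in the 3 I/R libraries and at 36.1, 25.1 and 18.7 in the 3 I/R+B12 libraries, a difference of -1.64 ± 0.31 (SE; limma adjusted p = 0.0739). The groups did not overlap, and the 6 sham libraries ranged from 26.8 to 70.8. Ifi27l2a, among the most abundant genes of the list, was at 294, 286 and 188 and 115, 39.2 and 44.01. For this gene I/R+B12 2 and 3 were also below the sham range of 92.2 to 214, whereas I/R+B12 1 was inside it.

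Other members of the list act on foreign nucleic acid. Oas1a, a 2'-5' oligoadenylate synthetase, was at 11.9, 10.6 and 5.24 FPKM in I/R and 4.90, 2.28 and 1.04 in I/R+B12. Oasl2 was at 15.8, 15.4 and 9.65 and 7.25, 4.52 and 2.15, and Zbp1, a sensor of Z-form nucleic acid, at 10.4, 11.6 and 4.17 and 3.31, 3.66 and 1.82. For each of them the highest I/R+B12 value was still under the lowest I/R value. The transcription factors Irf7 (21.5, 23.4 and 19.5 against 12.4, 13.4 and 9.09) and Irf1 (21.1, 19.7 and 22.2 against 14.8, 12.9 and 6.96) were separated as well. The interferon-induced GTPases Gbp2 (16.4, 14.6 and 20.4 against 9.81, 9.95 and 5.50) and Gbp7 (4.32, 4.40 and 6.74 against 2.55, 1.66 and 0.64) followed. The groups overlapped for 13 of the 44 members. One of them was Isg15, a ubiquitin-like modifier, at 36.7, 35.5 and 25.2 in I/R and 13.2, 34.7 and 11.8 in I/R+B12, so that I/R+B12 2 lay inside the I/R range.

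Promoter windows of members with a match to the interferon-stimulated element are shown here because most of these genes differed in one direction. The letters searched were GAAANNGAA on both strands, from 250 bases before to 50 after the start site, in RefSeq promoters of build GRCm38.p6. A match was found for 22 of 34 interferon-stimulated genes with a promoter in the table (64.7%), 6 of 21 antigen presentation genes (28.6%), 0 of 17 collagen genes and 9.76% of all 27025 genes. Each window below is written 5′ to 3′ on the gene's own strand, ends before the start site, and has the matched letters in capitals, read on either strand.
Bst2 (chr8:71537563-71537627, minus strand): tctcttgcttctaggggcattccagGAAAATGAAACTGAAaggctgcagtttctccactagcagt
Ifit3 (chr19:34583349-34583460, plus strand): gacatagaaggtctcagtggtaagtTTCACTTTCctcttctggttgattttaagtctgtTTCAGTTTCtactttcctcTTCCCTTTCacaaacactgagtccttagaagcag
Ifit3b (chr19:34607745-34607856, plus strand): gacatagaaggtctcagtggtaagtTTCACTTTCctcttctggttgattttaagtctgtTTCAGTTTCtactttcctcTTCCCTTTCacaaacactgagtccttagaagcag
Gbp2 (chr3:142620580-142620638, plus strand): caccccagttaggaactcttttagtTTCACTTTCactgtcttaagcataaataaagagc
Gbp7 (chr3:142530259-142530317, plus strand): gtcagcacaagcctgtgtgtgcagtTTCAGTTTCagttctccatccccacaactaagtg
Stat2 (chr10:128270252-128270310, plus strand): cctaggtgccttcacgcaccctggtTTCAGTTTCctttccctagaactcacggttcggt
H2-T23 (chr17:36032791-36032849, minus strand): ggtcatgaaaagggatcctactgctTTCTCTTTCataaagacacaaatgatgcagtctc
B2m (chr2:122147523-122147581, plus strand): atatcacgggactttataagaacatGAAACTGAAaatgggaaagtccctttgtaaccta
In Bst2 the matches overlap and lie 130 and 124 bases before the start. Ifit3 and Ifit3b, neighbouring copies on chromosome 19, hold 3 matches each in windows that are identical over all 112 bases, and reads of the copies may have been split between them. Ifit3 was at 15.7, 17.5 and 18.9 FPKM in I/R and 7.64, 10.8 and 10.6 in I/R+B12, and Ifit3b at 3.45, 3.80 and 5.26 and 1.63, 1.84 and 1.61. Stat2, a transcription factor of the interferon response, was at 9.62, 9.57 and 8.75 and 7.10, 6.09 and 4.82. Among tested interferon-stimulated genes, 14 of 21 with a match and 8 of 12 without one had all I/R+B12 libraries below I/R. Over all tested genes with a promoter the shares were 24% of those with a match and 18.7% of those without.

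Antigen presentation genes were lower in the same libraries. Of 26 listed genes, 26 were tested, 20 had non-overlapping groups with I/R+B12 lower and 0 with I/R+B12 higher, and I/R+B12 1 alone was below every I/R library for 25 of 26. The median difference was -0.76 (-0.52 after median-ratio scaling) and that between Sham+B12 and Sham was 0.05. All 26 differences in the injured hearts were negative, as were 71.8% of those of all tested genes. Sham+B12 and Sham gave 15 positive and 11 negative ones.

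The immunoproteasome, which cuts proteins into peptides suited to MHC class I, was separated between the groups in each subunit measured. Psmb9 (chr17:34181987-34187764, minus strand, mm10) was at 14.9, 16.2 and 21.5 FPKM in I/R and 6.04, 3.06 and 2.21 in I/R+B12, a difference of -2.03 ± 0.35 (adjusted p = 0.0739). Psmb8 was at 44.6, 45.2 and 49.6 and 22.8, 18.1 and 14.5, and Psmb10 at 57.3, 50.8 and 70.9 and 39.99, 32.97 and 33.4. Tap2, a subunit of the transporter that carries those peptides into the endoplasmic reticulum, was at 20.4, 17.8 and 19.03 and 13.5, 8.78 and 9.81. B2m, the light chain of class I molecules, was at 558, 604 and 802 in I/R and 377, 465 and 374 in I/R+B12 against 258 to 651 in the sham libraries. The heavy chains, whose reads can be shared with related class I genes, had differences of -0.62 for H2-K1 and -0.32 for H2-D1.

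MHC class II molecules present peptides on antigen-presenting cells. H2-Ab1 was at 72.6, 73.3 and 203 FPKM in I/R and 14.5, 29.9 and 33.9 in I/R+B12 (-2.02 ± 0.66, adjusted p = 0.1). I/R 3 stood far above the other I/R libraries, and Sham 2 was higher still at 287. Leaving out I/R 3 gave -1.53, and Cd74, the invariant chain, went from -1.57 to -1.09. H2-DMb1, a subunit of the peptide-loading molecule, was at 7.54, 9.35 and 13.2 and 2.38, 0.96 and 0.88. Ciita, the master regulator of class II transcription, was at 4.45, 0.92 and 1.10 and 0.19, 0.04 and 0.02, so that I/R+B12 2 and 3 were close to 0. Markers of cells that carry class II were also lower, and their part in the result was not tested: the 5 tested dendritic cell markers averaged 0.51, 0.49 and 0.46 in I/R and -0.03, -0.49 and -0.46 in I/R+B12, and the 6 B lymphocyte markers 0.21, 0.06 and 0.63 and -0.29, -0.15 and -0.71. In RNA from whole tissue, fewer cells of a type and less RNA per cell cannot be told apart.

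**Figure D1:**
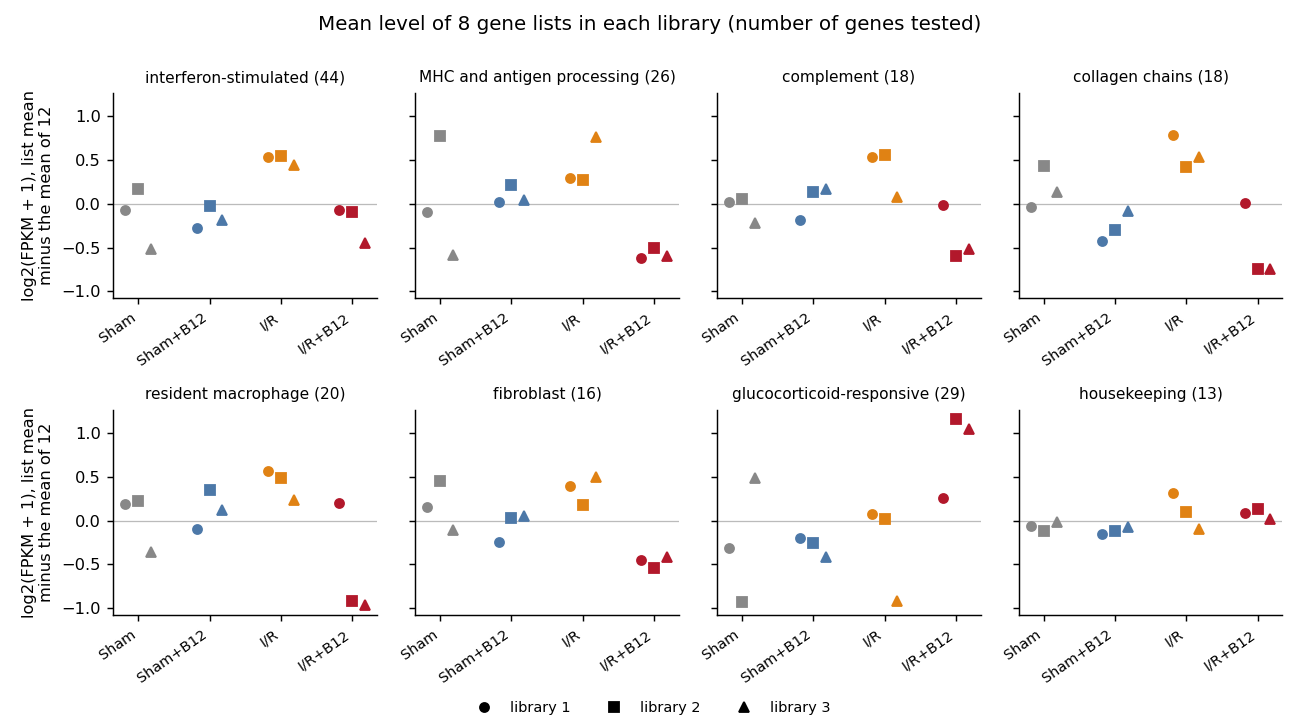
Each point is the mean over a list of log2(FPKM + 1) in 1 library, after each gene was centred on its mean over the 12 libraries, for 8 lists. The interferon-stimulated list stands between 0.44 and 0.55 in the 3 I/R libraries and between -0.45 and -0.07 in the 3 I/R+B12 libraries, while the collagen and resident macrophage lists place I/R+B12 1 apart from the other libraries of its group.

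Complement components of the classical pathway were lower with vitamin B12 in all 3 libraries, and some were almost equal across replicates. Of 22 listed genes, 18 were tested, 8 lay wholly below I/R and 0 wholly above, and 5 were below all 9 other libraries (4.46% of all tested genes). The median was -0.85 against -0.02 in the sham hearts. C1s1, the serine protease of the C1 complex (chr6:124530345-124542359, minus strand, mm10), was at 20.98, 21.3 and 23.1 FPKM in I/R and 9.69, 9.72 and 9.67 in I/R+B12, with the sham libraries at 13.6 to 21.6. Its difference was -1.09 ± 0.15 (adjusted p = 0.0739). C1ra, the partner protease, was at 11.9, 12.5 and 12.3 and 6.14, 5.08 and 6.66. Each of these proteases has a closely related copy nearby (C1s2 and C1rb), and reads may have been shared.

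C3, on which all complement pathways converge, was at 80.96, 82.8 and 54.8 FPKM in I/R and 35.4, 29.5 and 32.7 in I/R+B12, below the 39.7 to 86.8 of the sham libraries. With vitamin B12 it was higher in the sham hearts (difference 0.54) and lower in the injured ones (-1.12 ± 0.21). The test of the difference between those differences gave an adjusted p of 0.387, the smallest of any gene and shared with others. C4b was at 12.9, 12.7 and 6.66 and 4.28, 1.66 and 3.48, and Serping1, the C1 inhibitor, at 115, 123 and 109.6 and 84.6, 58.8 and 72.8. Clusterin, an inhibitor of the terminal complex, overlapped between groups (Clu, 638, 1109.6 and 349.9 and 456, 313 and 374).

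The C1q chains also belong to the list of resident macrophage markers, and that list was lower mainly in I/R+B12 2 and 3. C1qa was at 153, 146 and 129 FPKM in I/R and 98.5, 36.2 and 57.7 in I/R+B12. All 20 resident macrophage markers were tested and 12 lay wholly below I/R, while I/R+B12 2 and 3 together lay below I/R for 18 of 20 (45.3% of all genes). The list averaged 0.56, 0.49 and 0.23 in I/R and 0.20, -0.92 and -0.97 in I/R+B12, with a median difference of -1.11 that became -1.42 without I/R+B12 1. Cx3cr1, the fractalkine receptor, was at 1.92, 2.13 and 4.91 and 0.97, 0.08 and 0.04. Adgre1, which encodes F4/80, was at 13.6, 12.7 and 9.59 and 8.71, 2.22 and 1.92, and Timd4 at 1.44, 2.06 and 2.09 and 1.30, 0.09 and 0.19. Not all markers of this class were lower. Lyve1 was at 24.9, 18.5 and 8.97 and 26.2, 22.6 and 22.6, Cd163 at 14.5, 13.9 and 9.08 and 21.9, 9.06 and 8.68, and the efferocytosis receptor Mertk at 4.11, 3.47 and 3.44 and 4.12, 2.82 and 3.16.

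The recruited monocyte and neutrophil lists did not share a direction. The 20 markers of recruited monocytes averaged 1.93, 1.63 and -0.60 in I/R and 1.14, 0.58 and -0.62 in I/R+B12. Their median of -0.74 became -1.37 without I/R 3 and ran from -2.0 to -0.27 over all settings. Of the 20, 15 had negative differences (71.8% of all tested genes did), 3 lay wholly below I/R (18.8%) and 0 above. Ccr2, the chemokine receptor of inflammatory monocytes and one of those 3, was at 7.53, 6.89 and 3.44 FPKM and 2.28, 1.04 and 0.25. The neutrophil chemokine Cxcl2 was at 26.8, 20.03 and 0.66 and 28.96, 378 and 20.7, and the neutrophil protein S100a9 at 706, 681 and 9.10 and 407, 1139 and 53.9. Their order was set by single libraries: I/R 3 was low and I/R+B12 2 high for both. The median of the 16 neutrophil markers was 0.79 and turned to -0.57 when I/R 3 was left out and to -0.15 when I/R+B12 2 was, so no direction could be given for neutrophil genes.

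**Figure D2:**
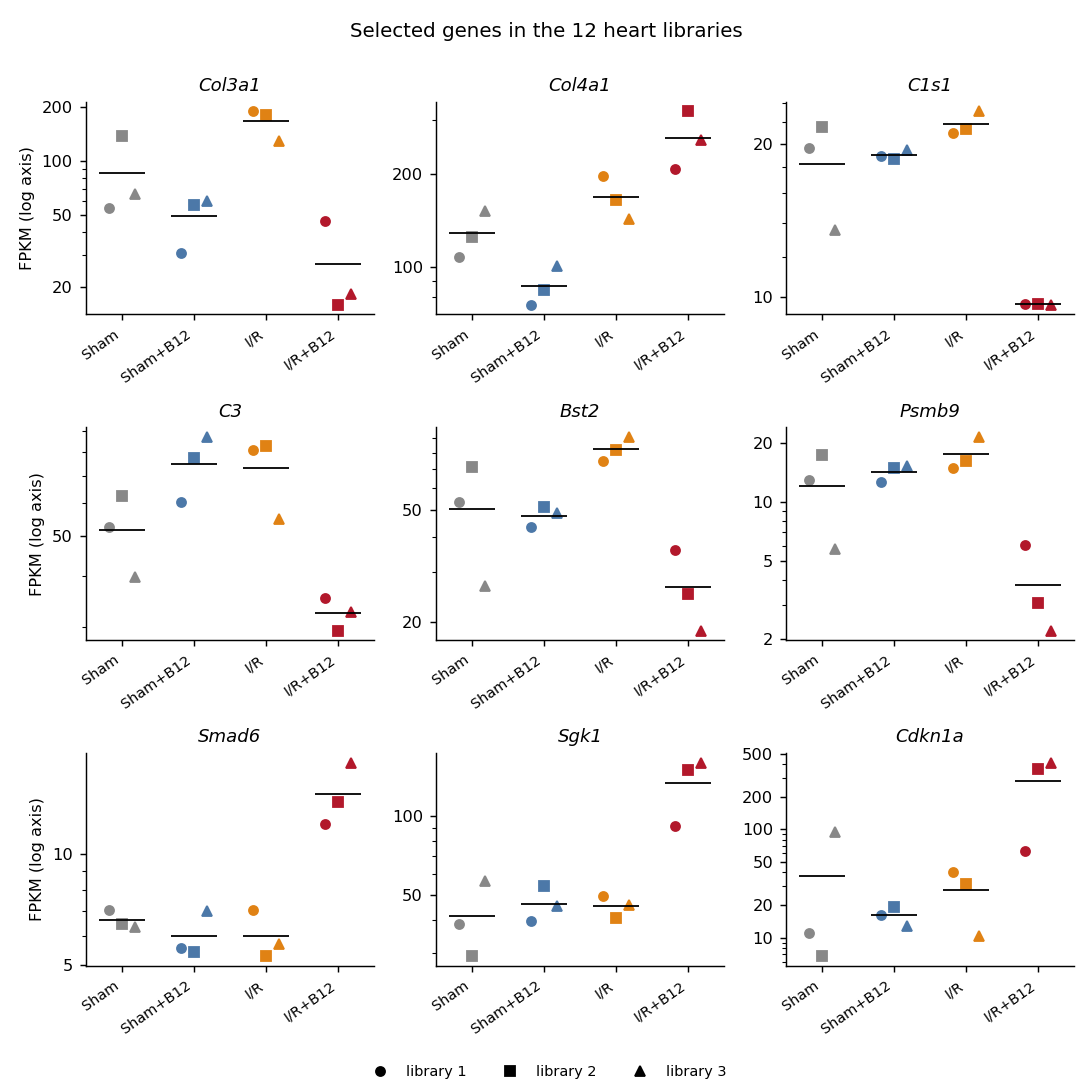
FPKM of 9 genes on a log axis in each of the 12 libraries, by group; bars are group means and symbols mark the library number. C1s1, C3, Col3a1, Bst2 and Psmb9 are lower in every I/R+B12 library than in every I/R library, and Col4a1, Smad6, Sgk1 and Cdkn1a are higher.

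Fibrillar collagens were lower in I/R+B12, while Col4a1 and Col4a2 of basement membrane collagen IV were higher. Of 21 listed genes, 18 were tested, 11 lay wholly below I/R (18.8% of all genes did) and 1 wholly above (4.41%). The differences of 16 were negative (71.8% of all genes), that of the collagen IV chain Col4a5 included, and those of 2 positive. The median difference was -1.12, -0.91 after median-ratio scaling and -1.33 without I/R+B12 1. Without that library the test called 14 lower (30.1% of all tested genes) and 1 higher (3.82%). In sham hearts the median with vitamin B12 was also negative, at -0.51, with 0 genes called. There 8 of the 18 lay wholly below Sham, against 1168 of all 13001 tested genes, and 0 wholly above.

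Col3a1, the chain of type III collagen (chr1:45311538-45349706, plus strand, mm10), was at 188, 181 and 129 FPKM in I/R and 46.5, 15.8 and 18.1 in I/R+B12, a difference of -2.73 ± 0.43 (adjusted p = 0.0739). I/R+B12 1 stood between the other I/R+B12 libraries and I/R, and the sham libraries ranged from 30.7 to 137. Type I collagen followed, with Col1a1 at 60.04, 44.8 and 37.99 and 21.3, 9.04 and 11.8 and Col1a2 at 75.5, 51.6 and 55.2 and 29.4, 13.7 and 21.1. The type V and VI chains, which organise fibrils and the pericellular matrix, gave -1.57 for Col5a1, -1.08 for Col6a1, -1.31 for Col6a2 and -1.92 for Col6a3. Col15a1, which anchors basement membranes to the interstitium, was at 49.9, 34.4 and 57.7 and 21.7, 15.4 and 9.53.

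The paired genes of type IV collagen, which share a promoter region and form the network of the vascular basement membrane, went the other way. Col4a1 was at 198, 165 and 144 FPKM in I/R and 208, 320.5 and 259 in I/R+B12 (0.62 ± 0.19, adjusted p = 0.095). All 3 values lay above the other 9 libraries. Col4a2 was at 130.3, 107 and 90.9 and 159, 151 and 129 with a difference of 0.43, its lowest I/R+B12 value lying just under the highest I/R value. In the sham hearts both were lower with vitamin B12, at -0.56 and -0.60. Elastin was on the same side in the injured hearts, with Eln at 21.4, 16.2 and 17.5 and 31.9, 19.8 and 29.9.

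Collagen processing enzymes cut, modify and crosslink the chains. Of 22 listed genes, 20 were tested, 18 had negative differences (71.8% of all tested genes did) and 6 lay wholly below I/R (18.8%). After median-ratio scaling 5 lay wholly below (11.7%), and the median of -0.37 became -0.13. Pcolce, the enhancer of procollagen C-proteinase, was at 72.9, 51.95 and 51.7 FPKM and 30.9, 17.5 and 26.9. Serpinh1, the collagen chaperone HSP47, was at 243, 221 and 134 and 181, 74.6 and 58.2, overlapping through I/R+B12 1. The crosslinking oxidase Lox overlapped as well, at 9.76, 6.57 and 1.55 and 6.54, 15.7 and 9.94. Among matricellular proteins and proteoglycans, 16 of 32 tested genes lay wholly below I/R (18.8%) and 0 above (4.41%), with a median of -0.65. After median-ratio scaling 12 lay wholly below (11.7%) and 1 above (11.3%), and the median was -0.42.

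That list holds the small leucine-rich proteoglycans, which bind collagen fibrils. Lum (lumican) was at 38.4, 32.7 and 52.1 FPKM in I/R and 17.4, 15.04 and 17.4 in I/R+B12, Prelp at 19.2, 20.6 and 24.9 and 14.5, 3.29 and 2.20, and Bgn (biglycan) at 215, 143 and 174 and 116, 97.4 and 114. Postn, which encodes periostin of activated fibroblasts, was at 36.4, 18.6 and 25.2 and 14.5, 15.9 and 11.2. The CCN genes that respond to mechanical and serum signals stood on the other side, but only through some libraries. Ccn1 was at 42.2, 28.9 and 30.8 and 38.3, 269.9 and 55.5, and Ccn2 at 84.4, 31.97 and 28.5 and 71.1, 171 and 84.3, with I/R+B12 2 the highest of all in both. Spp1 (osteopontin) was at 228, 119 and 0.50 and 98.9, 4.84 and 1.35, a spread within I/R that leaves its difference unreadable.

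The list of fibroblast markers shares several secreted matrix genes with the lists above. All 16 fibroblast markers had negative differences (71.8% of all tested genes did), and 10 lay wholly below I/R (18.8%). The list averaged 0.39, 0.18 and 0.50 in I/R and -0.45, -0.54 and -0.42 in I/R+B12. After median-ratio scaling 5 lay wholly below (11.7% of all tested genes). Pdgfra, the receptor that defines the lineage, was at 18.5, 14.8 and 11.2 FPKM and 15.2, 10.2 and 12.98, and the lineage factor Tcf21 at 9.70, 10.2 and 11.5 and 6.32, 10.6 and 7.65. Their differences were -0.19 and -0.34, and that of Dcn (decorin) was -0.56. Pi16, a marker of adventitial fibroblasts, was at 38.9, 38.8 and 43.4 and 22.6, 23.2 and 23.6.

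TGF-beta and BMP signalling genes had no common shift, but the inhibitory SMADs were higher. Of 37 listed genes, 34 were tested and the median difference was 0.01; 4 lay wholly above I/R and 1 wholly below, and after median-ratio scaling 8 lay above (11.3% of all tested genes). Smad6, which blocks BMP receptors, was at 7.03, 5.28 and 5.71 FPKM in I/R and 12.03, 13.8 and 17.6 in I/R+B12 (1.14 ± 0.16, adjusted p = 0.0739). Smad7, which blocks TGF-beta receptors, was at 5.73, 4.25 and 5.07 and 8.07, 9.08 and 6.80. Id1, a target gene of BMP signalling, was at 107, 97.5 and 96.05 and 142, 146 and 118. All 3 were above the 9 other libraries in every I/R+B12 library (2.51% of all tested genes were), as was Inhbb, an activin subunit, at 2.56, 1.85 and 0.79 and 3.76, 23.1 and 9.36. The ligand Tgfb1 overlapped between groups, at 35.5, 28.2 and 22.9 and 31.8, 30.6 and 14.4.

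Endothelial genes split. Of 18 listed genes, 18 were tested, 3 lay wholly above I/R (4.41% of all genes) and 1 wholly below (18.8%), and the median was 0.01. After median-ratio scaling 6 lay wholly above (11.3%) and 0 below (11.7%). Sox17, a factor of arterial endothelium, was at 21.6, 23.4 and 17.5 FPKM and 31.7, 59.05 and 54.7. Cldn5, the tight-junction claudin, was at 38.05, 30.7 and 36.1 and 40.2, 113 and 85.8, and Pecam1 at 122, 108 and 98.8 and 139, 141 and 170.3. The pan-endothelial Cdh5 overlapped between groups, at 128, 107 and 111 and 113, 129.6 and 112. The VEGF receptor Kdr lay wholly below I/R before that scaling, at 40.2, 41.2 and 53.4 and 35.1, 30.2 and 26.1. The angiopoietin receptor Tek was lower in I/R+B12 2 and 3 alone, at 26.2, 27.9 and 24.9 and 27.6, 10.8 and 11.1. Outside this list, Aplnr, the apelin receptor, was at 16.4, 15.8 and 30.5 and 8.56, 1.43 and 1.37. Wnt11 and Agt, also outside it, were higher in every I/R+B12 library than in I/R. Wnt11, a Wnt ligand of cardiac development, was at 4.25, 2.47 and 2.87 and 5.74, 14.3 and 22.8. Agt, the precursor of angiotensin, was at 4.52, 2.98 and 1.41 and 12.4, 65.9 and 34.7. For Agt, Sham 3 was at 11.58, just under I/R+B12 1, and the other sham libraries were between 1.10 and 3.23.

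Genes that respond to glucocorticoids were mostly higher with vitamin B12, chiefly in I/R+B12 2 and 3. Of 31 listed genes, 29 were tested, 12 lay wholly above I/R, against 4.41% of all tested genes, and 1 wholly below. I/R+B12 2 and 3 together were above I/R for 21 of 29 (9% of all genes). The median difference was 1.13, 1.52 without I/R+B12 1, 0.78 without I/R 3 and -0.03 in the sham hearts. I/R 3 was low on this list, which averaged 0.08, 0.02 and -0.92 in I/R and 0.26, 1.16 and 1.04 in I/R+B12. Sham 3, at 0.48, stood above I/R+B12 1, and the other sham libraries were between -0.93 and -0.20.

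Sgk1, a kinase that controls ion transport (chr10:21882184-21999903, plus strand, mm10), was at 49.4, 40.7 and 45.9 FPKM in I/R and 91.7, 149 and 159 in I/R+B12 (1.50 ± 0.25, adjusted p = 0.0739). Fkbp5, a co-chaperone of the glucocorticoid receptor, was at 25.9, 17.4 and 5.74 and 43.2, 61.5 and 82.8. The groups did not overlap for either gene, and the sham libraries ranged from 29.2 to 56.4 and from 6.61 to 59.4. Cdkn1a, the cell cycle inhibitor p21, was at 40.3, 30.9 and 10.4 and 63.00, 359.6 and 410.3, with I/R+B12 2 and 3 far above the first. For this gene Sham 3 was at 93.65, above I/R+B12 1, and the other sham libraries were between 6.72 and 19.07. Pdk4, which restrains glucose oxidation, was at 74.3, 134 and 75.4 and 142, 877 and 1028, and the sham libraries, at 114 to 559.6, reached above I/R. The metallothioneins, small metal-binding proteins, were among the most abundant members: Mt1 was at 1249, 1328 and 305 and 2015, 4938 and 3674, and Mt2 at 948, 1007 and 79.8 and 1268, 4130.0 and 2341. I/R 3 was the lowest injured library for both.

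Other members of the list did not follow. Tsc22d3, which encodes the glucocorticoid-induced leucine zipper, was at 58.5, 65.9 and 70.9 FPKM and 61.2, 44.04 and 74.3. Klf15 was at 20.6, 18.98 and 14.99 and 18.4, 13.1 and 41.3, high only in I/R+B12 3, and Dusp1 at 51.8, 51.5 and 82.3 and 60.5, 224 and 77.05, high only in I/R+B12 2. The receptor itself, Nr3c1, was at 12.2, 12.3 and 14.2 and 9.26, 8.01 and 7.78, a difference of -0.58. Immediate-early genes, which also answer to stress, gave a median of 0.57 that became 0.07 without I/R+B12 2. In I/R+B12 2 the list averaged 1.79 against 0.35 and 0.15 in the other I/R+B12 libraries. The letters AGAACA, part of the sites that the glucocorticoid receptor binds, searched on both strands, were in 22.2% of 27 promoters of the list and in 21.3% of all promoters.

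Clock genes did not differ in one direction. The heart has its own circadian clock, in which Arntl and Clock switch on the Per, Cry and Nr1d genes, whose products then repress Arntl and Clock. Of 18 listed genes, 17 were tested, and the median was 0.07. Wholly above I/R lay 4 (4.41% of all tested genes did) and wholly below 3 (18.8%), the latter near the share of all genes. After median-ratio scaling 4 lay above (11.3%) and 2 below (11.7%). Of 15 clock output genes tested, 2 lay wholly above (4.41%) and 2 wholly below (18.8%), with a median of -0.15. With that scaling 5 of them lay above (11.3%) and 2 below (11.7%). The time of day of harvest is not given for any library.

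Arntl, which encodes BMAL1, was at 1.89, 2.11 and 1.32 FPKM in I/R and 4.71, 9.19 and 10.9 in I/R+B12 (1.68 ± 0.44, adjusted p = 0.0857). Among the 6 sham libraries Sham 3 was the highest, at 4.86, and the others were between 0.34 and 1.20. Dbp, an output gene that Arntl and Clock switch on, was at 75.2, 72.2 and 115 in I/R and 25.8, 11.4 and 15.7 in I/R+B12. Here too Sham 3 was the lowest of the sham libraries, whose range was 32.4 to 123. Nr1d2, which represses Arntl, was at 18.5, 19.5 and 22.6 and 11.9, 11.4 and 11.9, and Sham 3 was again on the side of the I/R+B12 libraries. Cry1, a repressor, was higher in every I/R+B12 library than in the other 9, at 6.93, 9.50 and 8.99 against 4.56, 3.44 and 3.78 in I/R. Per1, also a gene induced by glucocorticoids, was at 12.1, 12.7 and 9.39 and 13.9, 41.2 and 61.5, whereas Per3 was at 3.56, 2.82 and 4.25 and 2.51, 1.21 and 1.24. Clock itself overlapped, at 4.13, 4.19 and 3.12 and 5.07, 3.07 and 3.31, as did Rora, at 2.18, 2.11 and 2.77 and 2.28, 2.74 and 2.73.

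Within I/R+B12 the first library stood nearest to I/R for Arntl, Cry1, Per1, Dbp and Per3. The E-box CACGTG, the letters that Arntl and Clock bind, searched as written since it reads the same on both strands, was in the promoters of 4 of 13 core clock genes (30.8%) and in 8.09% of all promoters. The windows of Per1 and Cry1, which lay wholly above I/R, are shown with the E-box in capitals, on the gene's strand of GRCm38.p6 and from RefSeq.
Per1 (chr11:69098758-69098813, plus strand): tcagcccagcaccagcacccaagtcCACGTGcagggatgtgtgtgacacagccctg
Cry1 (chr10:85185084-85185139, minus strand): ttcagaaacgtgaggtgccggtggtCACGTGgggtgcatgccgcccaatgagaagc
The match lies 166 bases before the start in Per1 and 60 bases before it in Cry1. Of the 4 tested core clock genes with an E-box in this window 2 lay wholly above I/R and 0 below, and of the 8 without one 2 lay above and 3 below. Over all tested genes with a promoter, 4.45% of those with an E-box lay above and 19.1% below. Without one the shares were 4.44% and 19.2%.

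**Figure D3:**
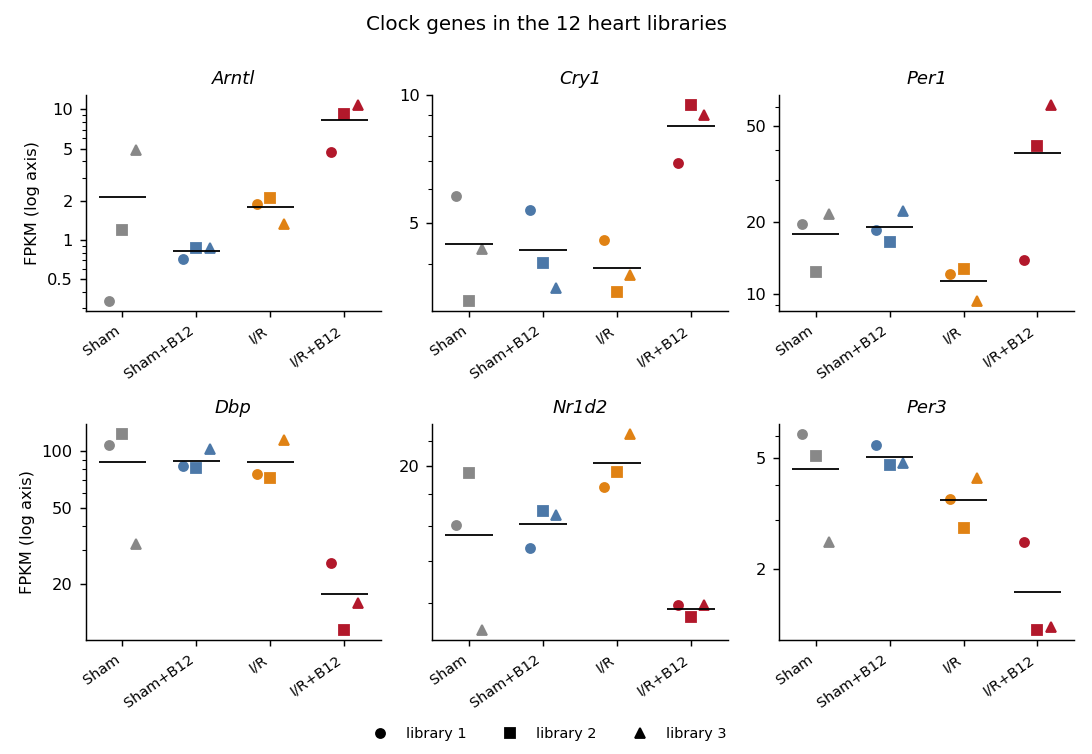
FPKM of 6 clock genes on a log axis in each of the 12 libraries, by group; bars are group means and symbols mark the library number. Arntl, Cry1 and Per1 are higher and Dbp, Nr1d2 and Per3 lower in I/R+B12 than in I/R, and Sham 3 stands with the I/R+B12 libraries for Arntl and Nr1d2.

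Cell cycle genes, which were low in the whole tissue, were lower again in I/R+B12. Of 40 listed genes, 32 were tested, and 17 lay wholly below I/R (18.8% of all tested genes did) and 0 above (4.41%). The median was -0.62, and it was -0.02 in the sham hearts. After median-ratio scaling 10 lay wholly below (11.7%) and 0 above (11.3%), and the median was -0.45. The replicative helicase subunit Mcm2 was at 7.12, 4.68 and 4.12 FPKM in I/R and 3.02, 1.29 and 1.75 in I/R+B12, Mcm5 at 8.04, 4.81 and 3.20 and 3.29, 1.21 and 1.29, and Lig1, the replicative DNA ligase, at 4.37, 3.22 and 2.61 and 1.91, 0.77 and 0.89. Top2a was at 4.52, 2.12 and 2.20 and 0.28, 0.93 and 0.71, and Cdk1 at 8.41, 3.62 and 7.15 and 2.18, 2.80 and 2.92. The list averaged 0.72, 0.27 and 0.28 in I/R and -0.12, -0.18 and -0.25 in I/R+B12, within the sham range of -0.35 to 0.15. I/R 1 was the highest library on this list.

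The genes of the 2 enzymes that use vitamin B12 were not higher in the hearts that had received it. The list also holds genes of its uptake and processing. Of 18 listed genes, 15 were tested, and 3 lay wholly below I/R (18.8% of all tested genes did) and 0 above (4.41%). The median of -0.27 was close to that of all genes and became -0.04 after median-ratio scaling. With that scaling 3 lay wholly above (11.3%) and 1 below (11.7%). Mmut, the methylmalonyl-CoA mutase, was at 19.9, 21.6 and 24.6 FPKM in I/R and 16.6, 9.58 and 14.5 in I/R+B12, and Mtr, the methionine synthase, at 17.99, 24.2 and 27.6 and 17.8, 5.25 and 8.86. For Mtr the first I/R+B12 library was level with I/R 1, and the other libraries of its group were lower. In sham hearts the 2 genes gave 0.08 and 0.25. The uptake receptor Cd320 was at 15.6, 9.68 and 12.6 and 14.9, 16.4 and 17.4, a difference of 0.36. Its groups overlapped, but it lay wholly above I/R after median-ratio scaling. The plasma carrier Tcn2 was at 41.8, 33.6 and 31.4 and 39.1, 21.9 and 29.6. Of 35 listed folate and one-carbon genes, 29 were tested, and 4 lay wholly below I/R (18.8%) and 0 above (4.41%). After median-ratio scaling 3 lay below (11.7%) and 2 above (11.3%), and the median of -0.26 became -0.07. Of those below before scaling, Shmt1 was at 3.39, 4.82 and 3.60 and 3.31, 1.29 and 2.06. The folate transporter Slc46a1 was at 1.77, 1.62 and 1.66 and 0.80, 0.35 and 0.42.

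Cardiomyocyte genes showed small differences. The 18 cardiomyocyte markers had a median difference of 0.16, and the 47 nuclear subunits of the respiratory chain 0.09, with 0 of 47 at an unadjusted p under 0.05. These medians and the 0.05 of 13 housekeeping genes stood above the median gene, and became 0.41, 0.33 and 0.28 after median-ratio scaling. Of 26 tested ion channel and gap junction genes 7 lay wholly below I/R, against 18.8% of all tested genes, and 1 above. After median-ratio scaling 4 lay wholly below, against 11.7%, and the median was -0.21. Gja1, which encodes the gap junction protein connexin 43, was at 116, 121 and 120.3 FPKM and 98.3, 44.04 and 43.6, lower mainly in I/R+B12 2 and 3. Hcn4, the pacemaker channel, was the one above I/R in all 3 libraries, at 1.27, 1.52 and 1.75 and 2.81, 2.15 and 2.88, on the same side as Tbx3.

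Natriuretic peptide and fetal genes, which the loaded or injured heart switches on, were a list of their own. Of 25 listed genes, 24 were tested, 3 lay wholly below I/R (18.8% of all tested genes did) and 1 above (4.41%), and the median was -0.14. Myh7, the slow myosin heavy chain of the fetal ventricle, was at 176, 64.8 and 63.9 FPKM in I/R and 22.1, 27.6 and 23.9 in I/R+B12, without overlap (-1.84 ± 0.80, adjusted p = 0.161). It was at 24.9, 59.5 and 362 in Sham and 45.5, 12.2 and 27.5 in Sham+B12, and its reads can be shared with the similar Myh6. The natriuretic peptide genes overlapped between groups. Nppa was at 581, 178 and 707 and 364, 293 and 211, with Sham 3 highest of all libraries at 3157, and Nppb was at 541, 279.6 and 288 and 329, 2039 and 220.0, where I/R+B12 2 was the highest. Sirt3, the main mitochondrial deacetylase, was at 25.1, 23.7 and 30.4 and 26.2, 19.1 and 27.4, and Prkaa2, the catalytic AMPK subunit of muscle, at 10.6, 10.5 and 11.6 and 12.1, 5.16 and 9.52, both overlapping.

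In the sham hearts the same vitamin B12 water gave fewer differences of this size. Between Sham+B12 and Sham 0 genes passed and 220 (1.69%) had an unadjusted p under 0.05, and the smallest adjusted p was 0.537. The 2 contrasts share no library, and across genes their differences had a correlation of -0.06, given as a description. The test of the difference between the injured and the sham contrast called 0 genes, with a smallest adjusted p of 0.387, and 1595 genes (12.3%) had an unadjusted p under 0.05. By that measure 14 of 20 resident macrophage markers, 19 of 44 interferon-stimulated genes, 12 of 26 antigen presentation genes, 9 of 18 complement genes and 9 of 18 collagens were counted. A difference between injured and sham hearts was therefore not established for any single gene.

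**Figure D4:**
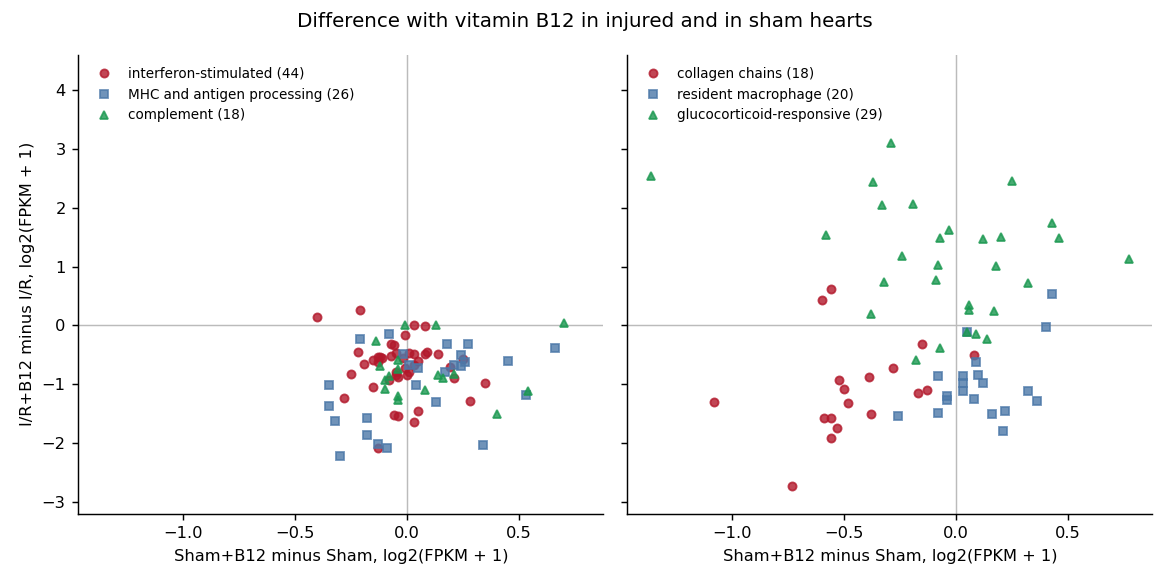
Each point is a gene of 6 lists, placed by its vitamin B12 difference in sham hearts (horizontal) and in injured hearts (vertical), both on the log2(FPKM + 1) scale. Interferon-stimulated, antigen presentation and complement genes spread around 0 in sham hearts and lie mostly below 0 in injured hearts, whereas 17 of 18 collagen chains are already below 0 in sham hearts (67.9% of all tested genes are).

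The lists divide by how I/R+B12 1 behaved. It lay below every I/R library for 39 of 44 interferon-stimulated, 25 of 26 antigen presentation and 14 of 16 fibroblast genes, for 12 of 18 collagens, for 12 of 20 resident macrophage markers and for 8 of 18 complement genes, against 28.7% of all tested genes. It lay above every I/R library for 14 of 29 glucocorticoid-responsive genes, against 22.1%. Of the 2448 genes with all I/R+B12 libraries below I/R, I/R+B12 1 was the highest of the 3 for 1904 (77.8%). Of the 4412 genes called without it, it was itself beyond all 3 I/R libraries on the same side for 1957 (44.4%) and on the other side of the I/R mean for 1402. Without it the test called 24 of 44 interferon-stimulated, 11 of 26 antigen presentation, 12 of 18 complement and 16 of 20 resident macrophage genes lower. The share of all tested genes called lower was 30.1%. Of 29 glucocorticoid-responsive genes 15 were called higher, against 3.82%. With median-ratio scaling as well, by which 14.2% of all tested genes were called lower and 13.1% higher, the counts were 10, 6, 9, 13 and 19.

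**Figure D5:**
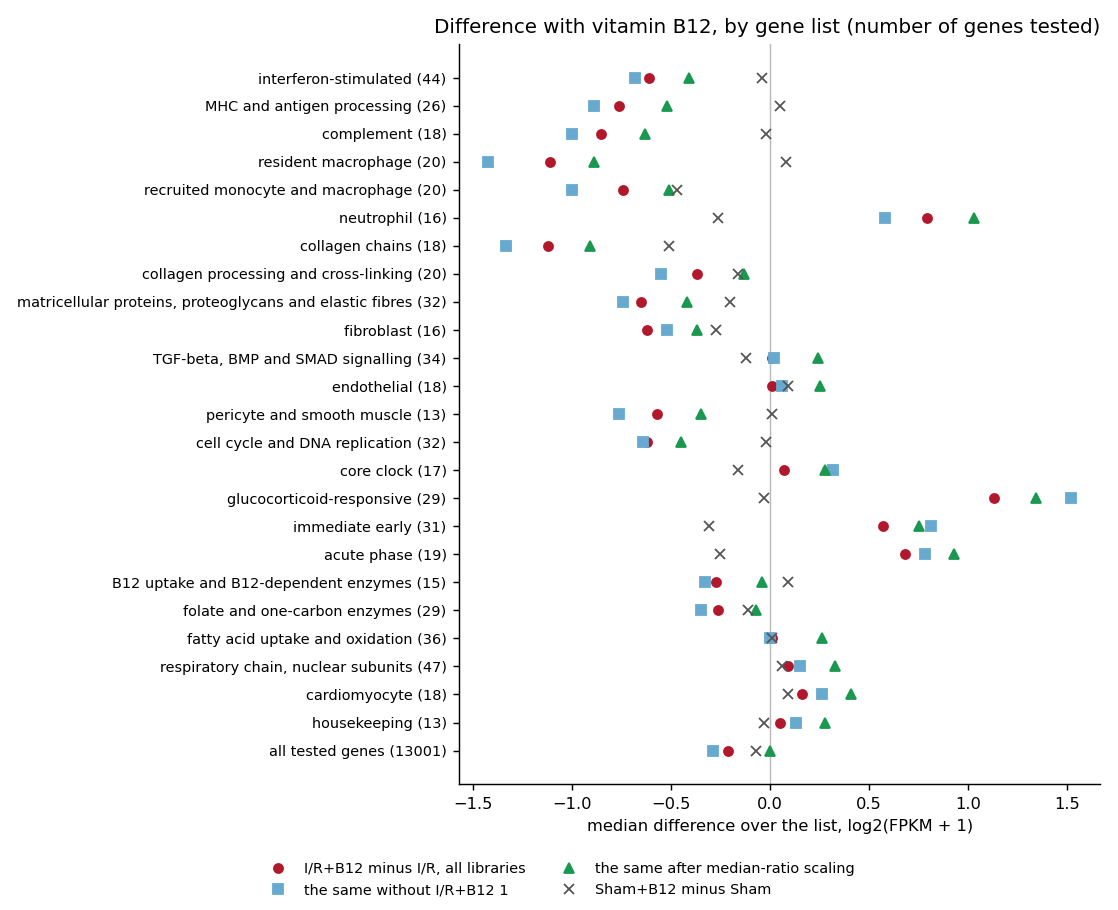
Median difference with vitamin B12 over each list on the log2(FPKM + 1) scale: all libraries, without I/R+B12 1, after median-ratio scaling, and in the sham hearts. The collagen, resident macrophage, complement, antigen presentation and interferon-stimulated lists stay below 0 in all 3 injured settings, and the glucocorticoid-responsive list stays between 1.13 and 1.52.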

How the data were processed

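Total RNA from 12 mouse hearts was poly(A)-selected and sequenced in paired ends on an Illumina instrument, per the labels' protocols. The submitters' processing notes name HISAT2, StringTie and mm10, without versions; annotation release and strand setting are not given in the sources used here, so reads of overlapping and antisense genes cannot be told apart. The authors deposited FPKM per gene, which are already scaled to each library's fragments, and 4 columns of group means, which were not used. Samples were grouped by the submitters' labels. Depth was estimated from the steps of low FPKM values (82.2% to 87.9% of them within 0.15 of a whole fragment), so it is known only in part.

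Log2(FPKM + 1) of 13001 genes that reached 1 FPKM in 3 or more libraries was fitted with limma 3.58.1 (R 4.3.3), 1 mean per group over the 12 libraries and a variance trend, two-sided, with Benjamini-Hochberg adjustment at 0.05. The script was tested on simulated data. Alternatives were pseudocounts of 0.1 and 0.5, other filters, median-ratio and quantile scaling, other spreads, a replicate block, leaving out each library, and library weights. Of the genes, 55227 had coordinates in GENCODE M21. The lists and the genes named were chosen with earlier results of these data known: the 15 smallest p-values in each direction, the 8 largest differences each way among genes of at least 5 FPKM whose groups did not overlap, the 4 smallest p-values and the non-overlapping members of each of 47 lists, 15 genes set by name and the 10 smallest p-values of the injured-against-sham test. Predicted genes were left out, the text describes those the results turn on, and further list members were added for their role after their values were seen.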

Additional observations from a re-analysis of the deposited data

How the results depend on the processing

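No gene was called between I/R+B12 and I/R (limma, adjusted p under 0.05; 3711 at an unadjusted p under 0.05) with pseudocounts of 0.1 or 0.5, with no filter or a filter at 5 FPKM, and with no trend or a robust one. The count was 2 with the compared groups fitted alone (Morf4l1-ps1 and Snhg9), 2 with median-ratio scaling (Snrpn and Tbx3), 1 with quantile normalization (Tbx3) and 4325 with library weights. With 1 library left out at a time it ran from 0 to 4412; leaving out I/R+B12 1 gave the 4412, Sham 3 gave 68, Sham 2 gave 2 (H2-DMb1 and Morf4l1-ps1), I/R+B12 2 gave 1 (a predicted gene) and the others gave 0. Settings chosen after seeing the data gave 5 without Sham 3 and I/R 3 (C1s1, Clec3b, Snhg9 and 2 predicted genes), 4116 leaving out I/R 3 with I/R+B12 1, and 3544 with I/R+B12 1 left out and median-ratio scaling. The sham contrast called 0, 3 with no filter (Cox5b-ps and 2 predicted genes), and 0 to 1 with a library left out (a predicted gene, without Sham 1). The difference between the contrasts called 0, 1 with no filter (Cox5b-ps), 1838 with library weights, 0 to 1830 with a library left out (1830 without I/R+B12 1, and 1 without Sham 2, Morf4l1-ps1, or Sham 3, Snhg9), and 2 (Snhg9 and a predicted gene), 1634 and 1284 in the 3 settings added. Whether the replicate numbers pair the libraries is not stated, and so few correlations cannot decide it. In their deviations, same-numbered I/R and I/R+B12 libraries correlated at 0.06, 0.15 and 0.39. Those of unlike number ran from -0.36 to 0.28. I/R 1 correlated best with I/R+B12 2, at 0.28, while I/R 2 and I/R 3 each correlated best with their own number. With the replicate number as a block 0 genes were called in each contrast, with a smallest adjusted p of 0.0931 and 3698 genes at an unadjusted p under 0.05 in the injured hearts. Among genes named, these uncalled differences changed sign: Nppa 0.20, S100a9 -2.16 and Sirt3 0.07 with library weights; Cd163 0.21, Clock 0.18, Mertk 0.09, Pdgfra 0.04, Sirt3 0.11, Tgfb1 0.02 and Tsc22d3 0.10 with median-ratio scaling; Cd163 0.19, Clock 0.28, Mertk 0.19 and Sirt3 0.01 with quantile normalization; Clock 0.10, H2-D1 0.14, Mertk 0.06, Pdgfra 0.03, Sirt3 0.17, Tcf21 0.14 and Tsc22d3 0.19 with I/R+B12 1 left out and median-ratio scaling. With 1 library, or a pair named above, left out the ranges that crossed 0 were Cd163 -0.62 to 0.20, Cdh5 -0.03 to 0.11, Clock -0.30 to 0.10, Klf15 -0.20 to 0.59, Nppb -0.38 to 1.22, S100a9 -1.47 to 2.01, Sirt3 -0.22 to 0.03, Tgfb1 -0.56 to 0.13 and Tsc22d3 -0.32 to 0.05. The cause of these shifts was not tested. Genes near 1 FPKM rest on few fragments, and the absence of calls with 3 libraries a group does not show that vitamin B12 made no difference.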
